A study of Mus musculus with 6 samples.

Results

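Rhox genes are X-linked homeobox genes that are expressed in reproductive tissues, and 5 of them were examined here: Rhox5, Rhox6, Rhox9, Rhox10 and Rhox13. A member's probe set was taken where the platform annotation gave that gene alone, which held for 4 of the 5 members, with 1 probe set each, among 45037 probe sets and 18193 genes. Rhox10 and the other 37 Rhox genes and pseudogenes of the RefSeq table were not analysed here. The study sorted cells of prepubertal mouse testis on magnetic beads for Thy1, a surface glycoprotein of spermatogonial stem cells, and asked which genes mark the fraction that is richer in these cells by transplantation. The Thy1-positive fraction has 3 arrays, called P1, P2 and P3, and the Thy1-negative fraction has 3, called N1, N2 and N3. Within a fraction, each array stands for an independent donor preparation of the same tissue. Whether a Thy1-positive and a Thy1-negative array share a preparation is not stated. Strain, age in days and the number of animals per preparation are not given in the sources used here, and the labels name no genotype or treatment. Both fractions are mixtures of cells. Fewer cells of a type and less RNA per cell therefore cannot be told apart.

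The Rhox cluster encodes transcription factors with a homeodomain, the DNA-binding fold of homeobox proteins. Rhox5, the founding member, is known in the postnatal testis as a gene of Sertoli cells, the somatic nurse cells of the tubule, where androgen drives its proximal promoter. A distal promoter serves other tissues, and Rhox5 is also known from embryonic stem cells and the placenta. Rhox10 and Rhox13 are known as genes of germ cells, and Rhox10 is needed for stem spermatogonia to form in normal numbers. Rhox6 and Rhox9 were first described in the placenta and embryonic gonad.

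The sequences around the annotated starts of Rhox5 and Rhox13 are shown because these are the members with signal above the middle of the arrays. Of the 5 members, 3 had an entry in the RefSeq table of 300 bases per start (250 before and 50 after, build GRCm38.p6), and the pair shown is on the plus strand. The Rhox5 window is chrX:37754358-37754657 and the Rhox13 window is chrX:38120590-38120889. Capitals mark matches, on either strand, to the ETS core CCGGAA, the GC box with letters GGCGGG, the GATA factor site with letters AGATAA and the androgen receptor half-site AGAACA. These motifs were chosen with the sequences in view.
Rhox5: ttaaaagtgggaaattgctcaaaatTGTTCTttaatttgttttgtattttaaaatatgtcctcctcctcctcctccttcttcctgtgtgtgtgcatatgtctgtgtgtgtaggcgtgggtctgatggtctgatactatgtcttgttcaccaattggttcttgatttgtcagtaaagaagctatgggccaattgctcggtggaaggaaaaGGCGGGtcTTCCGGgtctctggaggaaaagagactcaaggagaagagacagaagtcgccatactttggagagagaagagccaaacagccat
Rhox13: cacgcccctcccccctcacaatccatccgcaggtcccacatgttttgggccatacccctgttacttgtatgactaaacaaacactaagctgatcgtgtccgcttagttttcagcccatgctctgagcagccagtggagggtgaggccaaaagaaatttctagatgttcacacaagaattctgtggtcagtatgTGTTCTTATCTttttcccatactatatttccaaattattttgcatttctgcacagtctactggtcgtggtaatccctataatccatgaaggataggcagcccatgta
The Rhox5 window holds 1 match each to the GC box, the ETS core and the androgen receptor half-site. From the annotated start they begin at positions -41, -33 and -225. The Rhox13 window holds an androgen receptor half-site at -57 and a GATA site at -52, which overlap by a base, so that they form a single capital run. Among 32851 windows of this length, 14.9% hold the ETS core, 35.3% the GC box, 11.2% the GATA factor site and 19.0% the androgen receptor half-site. Both windows hold 5 CpG dinucleotides, against a median of 7 over all windows. A match describes letters in the sequence and shows no binding. Whether the annotated Rhox5 start belongs to the proximal or the distal promoter was not examined.

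Sorting was visible in Thy1 itself, which rose in Thy1-positive cells. It measured 65.2, 90.7 and 65.2 intensity units on P1, P2 and P3, against 4.11, 4.08 and 5.70 on N1, N2 and N3. The log2 difference was 3.72 (SE 0.19, adjusted p = 0.00151). Values are linear intensities unless named as log2(intensity + 1). Each difference subtracts the Thy1-negative mean from the Thy1-positive mean on that log2 scale, with p-values of limma adjusted across the 45037 probe sets. A gene passed where this adjusted p was below 0.05. Median intensities of the 6 arrays lay between 15.7 and 17.5, and the 25th percentiles between 5.34 and 5.42. The number of arrays, 3 per fraction, limits the precision of each value.

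No Rhox probe set passed: 0 of 4 were called, where 23.4% of all probe sets were, and 1 of the 4 (Rhox5) had an unadjusted p below 0.05. Rhox5 and Rhox6, 2 of the 4, were higher on every Thy1-positive array than on any Thy1-negative one, an order found in 24.9% of all probe sets. The opposite order occurred in 0 of 4 members and 18.7% of all probe sets, so that 43.6% of the table had separate groups in either direction. Rhox13 and Rhox9 overlapped. Of the called probe sets of the whole table, 50.6% were higher in Thy1-positive cells. That share was 81.4% when each array was centred on its median, a scaling that moves the median difference of all probe sets to 0.13.

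Rhox5 measured 137, 76.0 and 117 on P1, P2 and P3, against 17.4, 67.3 and 28.3 on N1, N2 and N3. All Thy1-positive arrays were above all Thy1-negative ones, but P2 and N2 lay close together, and N1 sat at the median of its array. The log2 mean was 6.75 ± 0.43 in Thy1-positive cells, against 5.06 ± 0.96 in the Thy1-negative fraction (SD, n = 3 each). The difference of 1.70 (SE 0.57, adjusted p = 0.107) corresponds to 3.24-fold, with a 95% interval from 1.15-fold to 9.14-fold before adjustment. Without N2 the difference was 2.21 and passed (adjusted p = 0.0253), and without both arrays numbered 2, a choice made after the values had been seen, it was 2.46 (adjusted p = 0.0363). Among the fits that left out a different single array it lay between 1.27 and 1.94 and did not pass.

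Rhox13 was above the median of the array on all 6 arrays. It measured 1108, 682 and 1085 on P1, P2 and P3, against 199.6, 2003 and 569.6 on N1, N2 and N3. The 3 Thy1-positive values lay inside the range of the Thy1-negative ones, and N2 was the highest of all 6 arrays while N1 was the lowest. Its value stood at the 94.6th percentile of probe sets on N2 and at the 72.2nd on N1. Its log2 mean was 9.87 ± 0.40 in Thy1-positive cells, against 9.26 ± 1.66 in the Thy1-negative fraction (SD, n = 3 each). The difference of 0.61 (SE 0.92, adjusted p = 0.734) has a 95% interval from -1.81 to 3.04, which does not exclude a change of several fold in either direction. N2 and N1 set its size and sign: it was 1.47 (adjusted p = 0.178) without N2 and -0.19 (adjusted p = 0.901) without N1.

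Rhox6 and Rhox9 were dim, below the median of the array on all 6 arrays. Rhox6 measured 6.85, 6.68 and 6.48 on P1, P2 and P3, against 6.45, 6.30 and 6.45 on N1, N2 and N3. These values ran from the 33.4th to the 36.0th percentile of probe sets, and their log2 difference of 0.05 (SE 0.02, adjusted p = 0.180) has a 95% interval from -0.01 to 0.11. Rhox9 measured 7.97, 7.97 and 10.2 on P1, P2 and P3, against 7.71, 7.97 and 7.97 on N1, N2 and N3. Identical intensities recurred on 4 arrays, and P3 alone was higher, at the 45.2nd percentile. Its log2 difference was 0.12 (SE 0.10, adjusted p = 0.501), with a 95% interval from -0.14 to 0.38. At this level an array reports little about transcript amount, and neither expression nor its absence can be read from these probe sets.

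**Figure D1:**
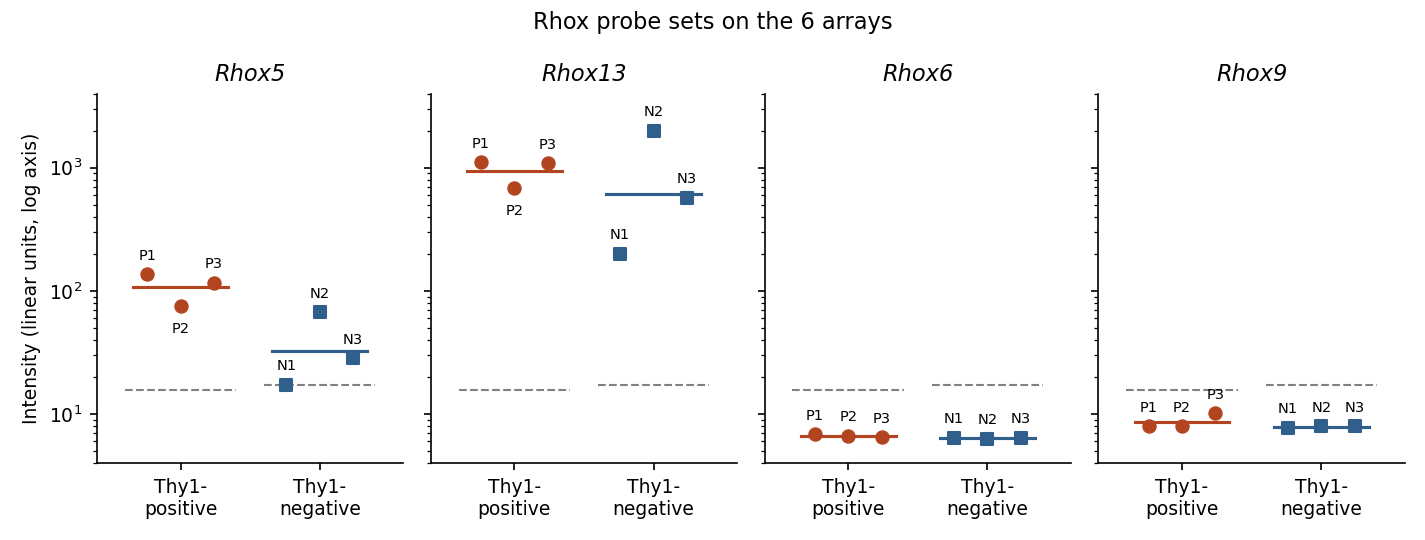
Intensity (linear units on a log axis) of the 4 Rhox probe sets on the Thy1-positive arrays P1 to P3 and the Thy1-negative arrays N1 to N3; solid lines are means taken as log2(intensity + 1), dashed lines the mean of the array medians. Rhox5 runs from 76.0 to 137 on the Thy1-positive arrays and from 17.4 to 67.3 on the others, Rhox13 is highest on N2 at 2003, and Rhox6 and Rhox9 lie under the dashed lines.

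Within an array, the log2 value of Rhox5 minus that of another member shows whether the 2 changed unequally. Rhox5 minus Rhox13 was -3.01, -3.15 and -3.20 on P1, P2 and P3, against -3.45, -4.87 and -4.28 on N1, N2 and N3. The Thy1-positive arrays were tightly grouped (SD 0.10) and all above the Thy1-negative ones (SD 0.72), a shift of 1.08. In a 2-sided exact permutation test over the 6 arrays p was 0.1 (0.1 adjusted over 3 pairs), the smallest that 3 against 3 allows. The other pairs set Rhox5 against the dim Rhox6 and Rhox9, restate the difference of Rhox5 itself and are not read here. With a pseudocount of 16 in place of 1, the shift of Rhox5 against Rhox13 was 0.72 and the groups overlapped (exact p = 0.4).

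The known postnatal source of Rhox5 is the Sertoli cell, whose markers are set beside it here. Rhox5 itself differed by 1.70 and did not pass (adjusted p = 0.107 by limma). All 16 measured Sertoli genes fell, with a median difference of -4.13, where 13.2% of all genes were lower and the median of all genes was 0.01. Among them were the hormone gene Amh (-5.61, SE 0.55), the FSH receptor gene Fshr (-5.14, SE 0.51) and the transcription factor gene Wt1 (-4.73, SE 0.80); Amh and Fshr were dim in Thy1-positive cells. The direction held on every array, but the number that passed was 9 without P1, 16 without P2, 3 without P3, 6 without N1, 13 without N2 and 3 without N3. The mean of the Sertoli list was 7.18, 8.94 and 7.35 on P1, P2 and P3, against 12.15, 11.47 and 12.00 on N1, N2 and N3. Among the Thy1-positive arrays, P2 had the highest Sertoli mean and the lowest Rhox5. Among the Thy1-negative ones, N2 had the lowest Sertoli mean and the highest Rhox5. Each of these orders rests on a single array. The cell source of Rhox5 in these fractions was not tested, and the gene is called here by its name alone.

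The germ cell lists differed in how far they favoured Thy1-positive cells. In each, the list mean of N2 was the highest of the Thy1-negative arrays. For differentiating spermatogonia it was also above every Thy1-positive array, at 9.66 against 8.94, 8.93 and 9.11 on P1, P2 and P3. Of 18 measured genes of undifferentiated spermatogonia 14 rose, with a median of 2.37, among them Lhx1 (3.68, SE 0.29), Ret (3.62, SE 0.24) and Pou5f1 (3.61, SE 0.45), where 16.4% of all genes were higher. Of 13 genes shared by germ cells 4 rose, including Tdrd1, Tdrd5 and Tdrd12, Tudor domain genes of the piRNA pathway (2.57, 2.49 and 2.42), and the median was 1.90. Of 7 genes of differentiating spermatogonia 1 rose, Sohlh2 (1.82, SE 0.43), with a list median of 0.00, and of 12 genes of meiotic prophase 0 passed by limma, with 7 at an unadjusted p below 0.05 and a median of 1.42. Without N2 the higher genes numbered 13 of 13, 3 of 7 and 11 of 12 in these last 3 lists, and without any other single array at most 1 gene in each passed. For undifferentiated spermatogonia the number was 17 without N2 and 9 to 11 without another array. These counts were added after the values had been seen. In the same fits 15.1% of all probe sets were called higher without N2, against 3.64% to 9.09% without another array.

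Among the Thy1-negative arrays, N2 was the highest and N1 the lowest for Rhox13 and for Rhox5. N2 exceeded the mean of N1 and N3 by 2.57 for Rhox13 and by 1.56 for Rhox5 on the log2 scale, which is more than in 99.9% and 99.2% of all probe sets. By the same measure, chosen after the values had been seen, the median gene was at 1.85 in the meiotic list, 1.72 in the differentiating list, 1.52 in the list of all germ cells and 0.55 in that of undifferentiated spermatogonia. It was -0.53 in the Sertoli list and -0.01 over all genes. The part of these differences in cell content in the Rhox values was not tested.

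**Figure D2:**
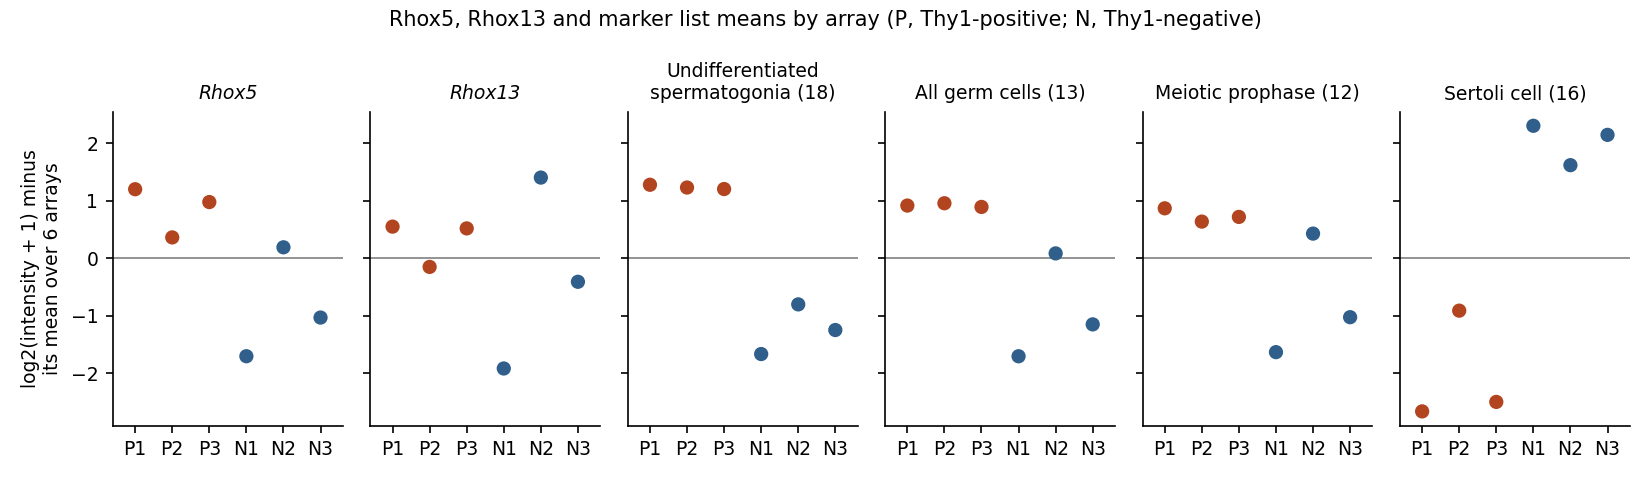
Log2(intensity + 1) of Rhox5 and Rhox13 and mean log2 of 4 marker lists (number of genes in brackets), each minus its own mean over the 6 arrays, with Thy1-positive arrays P1 to P3 left of Thy1-negative arrays N1 to N3. Rhox13 is highest on N2, Rhox5 on P1, and the Sertoli list is high on all Thy1-negative arrays, from 11.47 to 12.15 before centring.

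Other cell types moved with the fractions too. All 13 macrophage genes rose, with a median of 6.74, among them the complement genes C1qa (7.99) and C1qb (7.70) and the adaptor gene Tyrobp (7.66). All 3 were below the array median in Thy1-negative cells, so the sizes of their differences depend on each probe set's floor and have no order. Their list mean lay between 9.58 and 10.06 on the Thy1-positive arrays, against 3.35 to 3.43 on the Thy1-negative ones, and so did not set N2 apart. Of 5 peritubular myoid genes 3 fell, Myh11, Acta2 and Tagln (-3.19, -2.86 and -2.62), where 13.2% of all genes were lower. Of 4 Leydig cell genes 1 fell, Cyp17a1 (-1.46, SE 0.35), where 2 fell without N2 and 0 without any other single array. What macrophages or other cells contributed to the Rhox values was not tested.

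The genes whose centred log2 values lay nearest to those of Rhox5 over the 6 arrays were Orc1, Tspan13 and Magea5. Orc1 encodes a subunit of the origin recognition complex of DNA replication, Tspan13 a tetraspanin, and Magea5 is an X-linked gene of the MAGE family. Their root mean square distances were 0.06, 0.10 and 0.12 log2 units. Genes near a member were picked for likeness on these same 6 arrays, so a shared order of the arrays follows from the choice. Orc1 measured 860, 441 and 732 on P1, P2 and P3, against 119, 423 and 174 on N1, N2 and N3. It did not pass (1.66, SE 0.57, adjusted p = 0.114), and its other probe set differed by 0.60. Nearest to Rhox13 were 1700013H16Rik, an X-linked gene, Slc27a2, which encodes an acyl-CoA synthetase, and Spdya, an activator of cyclin-dependent kinase in meiosis, at 0.17, 0.26 and 0.28. 1700013H16Rik measured 202, 164 and 204 on P1, P2 and P3, against 45.4, 476 and 109 on N1, N2 and N3. Of 18189 genes compared, 67 lay within 0.25 of Rhox5 and 1 within 0.25 of Rhox13. For the flat Rhox6 and Rhox9 the numbers were 9135 and 8732, and the nearest genes were Map3k14, Phkg1 and Ctsm for Rhox6 and 1700003E16Rik, 2410012E07Rik and Fbxw21 for Rhox9.

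X-linked germ cell genes outside the Rhox cluster gave a frame for these values. Of 8 measured, 1 rose: Usp26, a deubiquitinase gene of germ cells, at 950, 686 and 973 on P1, P2 and P3, against 90.3, 289 and 110 on N1, N2 and N3 (2.59, SE 0.50, adjusted p = 0.0274). The median was 1.63, and 16.4% of all genes were higher. Nxf2, Tktl1, Tex11, Tex16 and Taf7l, named after their values were seen, differed by 1.87, 1.64, 1.63, 1.63 and 1.44 and did not pass, while Tex13a and Fthl17a were dim in both fractions. Rhox5 at 1.70 lay inside the range of the genes that were not dim, from 1.44 for Taf7l to 2.59 for Usp26. Rhox13 at 0.61 lay below that range and above the dim Tex13a and Fthl17a. The 95% interval of Rhox13, from -1.81 to 3.04, covered the differences of all 8. Without N2, 6 of the 8 passed, and without any other single array 0 did. In these fits 15.1% of all probe sets were called higher without N2 and 3.64% to 9.09% without another array.

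Transcription factors that have been described at the Rhox5 promoters were mostly lower in Thy1-positive cells. Of 8 measured, 5 fell and 1 rose at their brightest probe set, where 13.2% of all genes were lower and 16.4% higher. The median was -1.07. The GATA factors Gata4 (-3.89, SE 0.69) and Gata1 (-3.35, SE 0.73), both of Sertoli cells, fell most. Gata4 measured 51.2, 262 and 97.5 on P1, P2 and P3, against 2182, 1076 and 1869 on N1, N2 and N3, with P2 nearest to the Thy1-negative arrays. Of the ETS factors described at the distal promoter, Elf1 fell (-1.55, SE 0.28), while Ets2 (-1.34, adjusted p = 0.0515) did not pass, and Ets1 rose (0.66, SE 0.13). The direction of Gabpa is not settled: its brightest probe set differed by -0.71 (adjusted p = 0.119) and its other one by 1.10 (adjusted p = 0.0572), and neither passed. Sp3, a factor of GC boxes, fell (-0.81, SE 0.13). Sp1 of the same family gave opposite calls, -0.80 at its brightest probe set and 0.58 at another. Without a single array, the factors that fell numbered 5 without N2, 3 without P2 and at most 1 otherwise, and Ets1 passed only without P1 or P2. The androgen receptor gene was not analysed here.

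Genes known to respond to androgen in Sertoli cells were not uniform. Of 4 measured, 1 fell and 1 rose, where 13.2% of all genes were lower and 16.4% higher. Tubb3, a tubulin gene, fell (-3.42, SE 0.42). The claudin gene Cldn3 rose (0.50, SE 0.05) but was dim in both fractions (4.04 against 3.55 on the log2 scale). Eppin, a protease inhibitor gene, measured 20.1, 81.2 and 25.2 on P1, P2 and P3, against 81.3, 238 and 132 on N1, N2 and N3, and did not pass (-1.95, SE 0.70, adjusted p = 0.127). Drd4, a dopamine receptor gene, did not pass either (-1.99, SE 0.95, adjusted p = 0.228). Like Rhox5, both were highest among Thy1-negative arrays on N2, at 228 for Drd4, but their Thy1-positive values lay lower rather than higher.

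DNA methylation and its partners keep the Rhox cluster silent in many tissues, and of 6 such genes 3 were called higher in Thy1-positive cells at their brightest probe set, where 16.4% of all genes were. For 1 of the 3, Dnmt3a, the probe sets gave opposite calls. Uhrf1, a cofactor of maintenance methylation, differed by 1.26 (SE 0.16) and the maintenance enzyme gene Dnmt1 by 0.78 (SE 0.19). Dnmt3a, a de novo enzyme gene, differed by 0.65 (SE 0.14) at its brightest probe set, whereas of its other probe sets 2 fell (-1.30 and -2.12) and 1 rose (1.68). By the mean of all its probe sets it differed by -0.47 (adjusted p = 0.0291), so its direction is not settled. Dnmt3b, Ehmt2 and Hells did not pass (0.86, 0.80 and 0.71), although another probe set of Ehmt2, a histone methyltransferase gene, rose by 2.27. The median of the list was 0.79. Without N2, 5 of the 6 were called higher at their brightest probe set, against 2 without N1, 1 without P1, P2 or N3 and 0 without P3. The share of all probe sets called higher was 15.1% without N2 and 3.64% to 9.09% without another array.

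Of 4 genes described downstream of Rhox5 or Rhox10, 1 rose and 1 fell, where 16.4% of all genes were higher and 13.2% lower. Zbtb16, the PLZF gene of spermatogonial self-renewal, has been placed under RHOX10 and rose by 2.51 (SE 0.39), and Dmrt1, of the same program, measured 0.64 (SE 0.16, adjusted p = 0.0532). Ins2, an insulin gene that RHOX5 activates in Sertoli cells, fell (-0.72, SE 0.13) but was dim in both fractions (2.35 against 3.07 on the log2 scale). Unc5c, a netrin receptor gene that RHOX5 represses, was dim as well (2.61 in both fractions) and gave no information. Without a single array, the genes higher numbered 2 without N2, 1 without N1 and 0 otherwise, and Ins2 fell only without N2 or N3. Of all probe sets, 15.1% were called higher without N2 and 6.23% without N1.

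**Figure D3:**
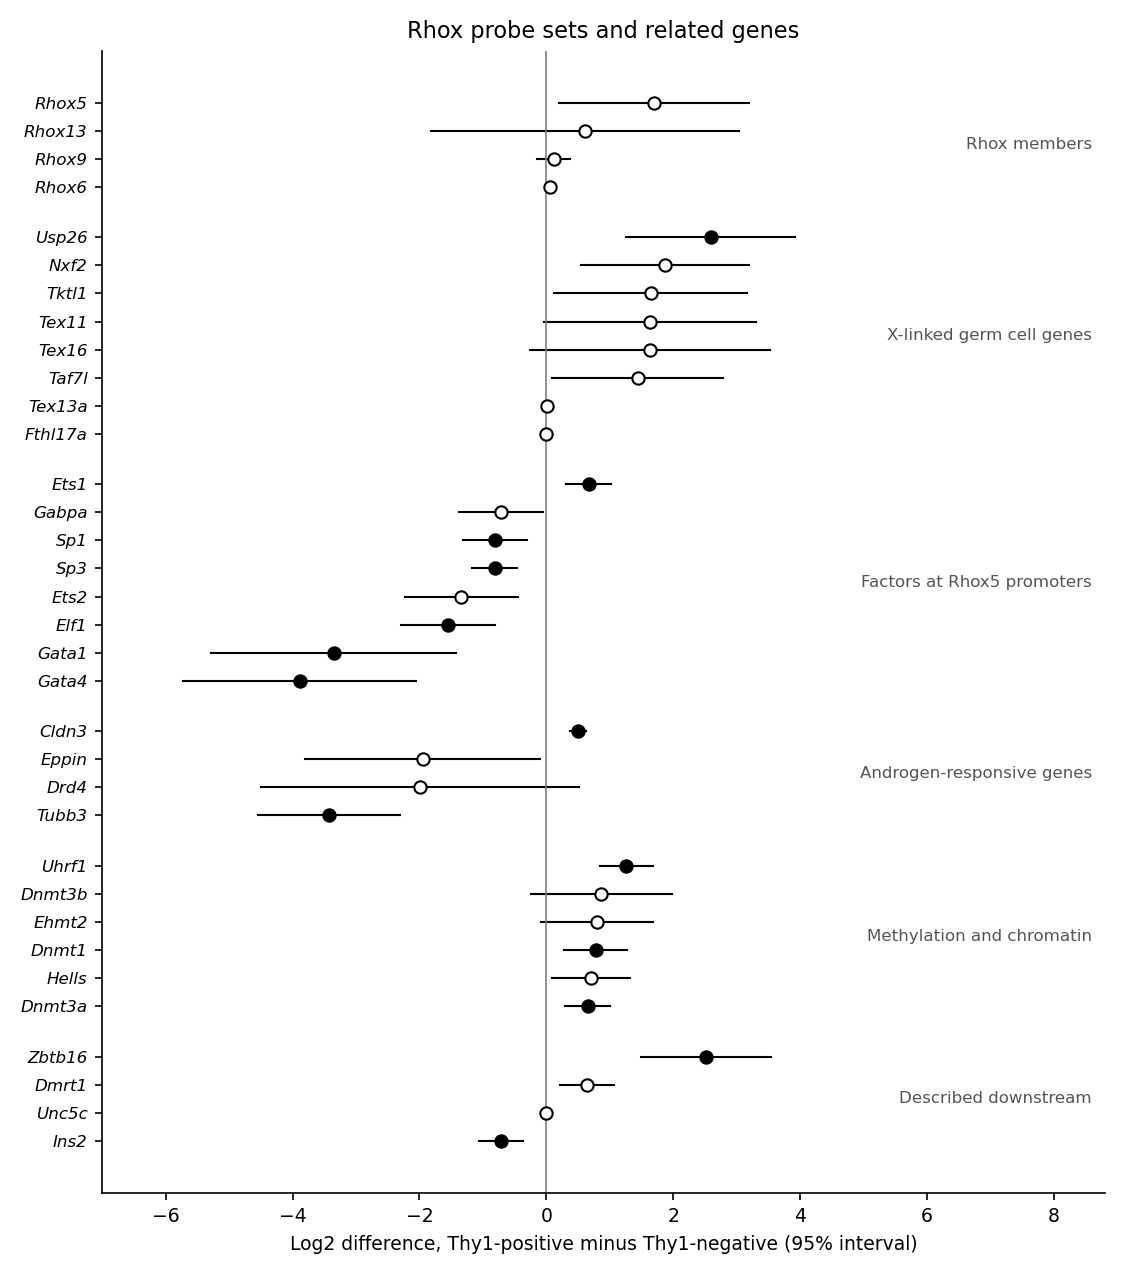
Log2 difference, Thy1-positive minus Thy1-negative, with the unadjusted 95% interval from limma, for the Rhox probe sets and 5 lists of related genes; filled points passed at an adjusted p below 0.05. The Rhox points are all open, from 0.05 for Rhox6 to 1.70 for Rhox5, while Gata4 at -3.89 and Usp26 at 2.59 are filled.

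How the processing moved the members is drawn for Rhox5 and Rhox13. Rhox5 kept a positive difference under every setting tried and passed in 5 of them. Those were centring on the median, restriction to probe sets above the median, array weights, and leaving out N2 or both arrays numbered 2. In that order, 57.4%, 29%, 29.6%, 15.1% and 14.5% of the probe sets tested were called higher, against 11.8% as reported. The fit of the array weights stopped short of its convergence tolerance. Rhox13 passed in none, and its sign turned without N1.

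**Figure D4:**
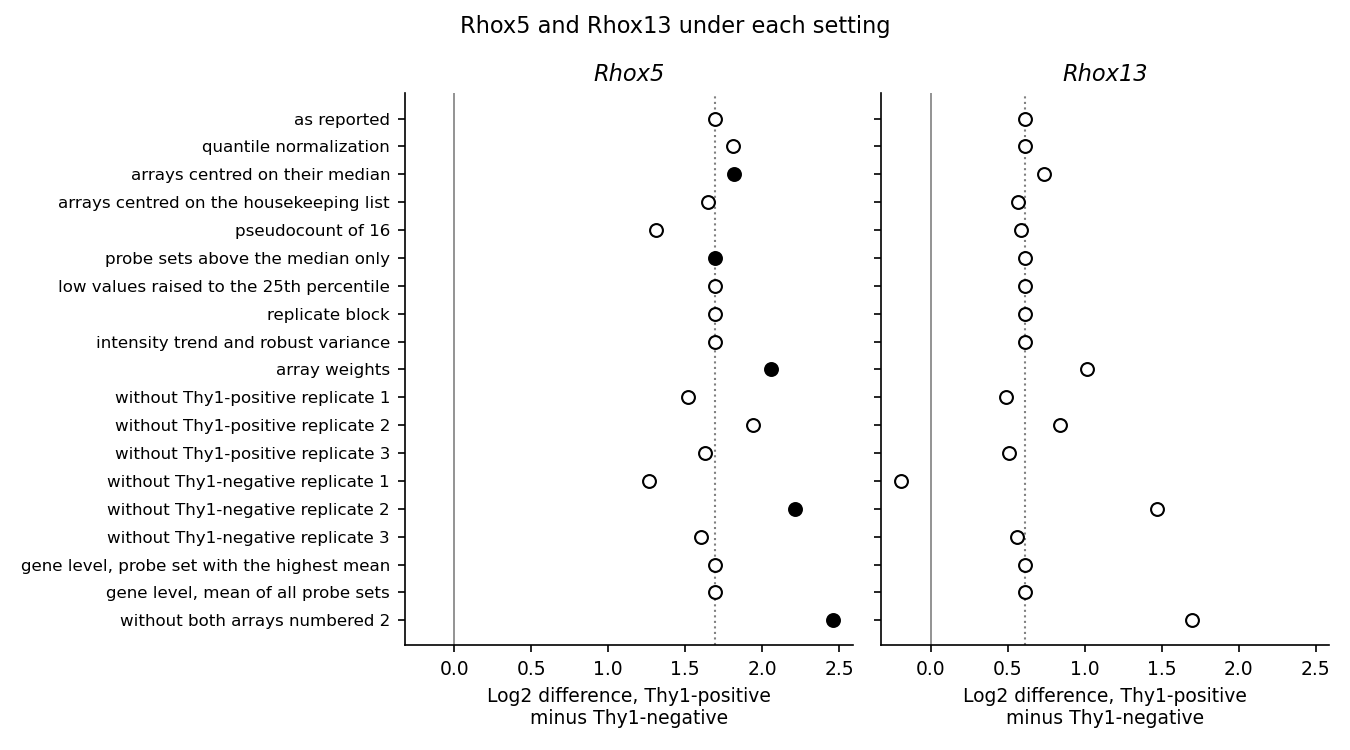
Log2 difference, Thy1-positive minus Thy1-negative, of Rhox5 and Rhox13 under each setting (rows), with filled points where the adjusted p was below 0.05 and a dotted line at the reported value. Rhox5 ranges from 1.27 to 2.46 and Rhox13 from -0.19 to 1.70.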

How the data were processed

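RNA of 6 mouse testis samples, 3 Thy1-positive and 3 Thy1-negative, was measured on Affymetrix mouse arrays, 1 array per sample. The deposited table gives an intensity for each probe set on each array, not log-transformed. GCRMA is the tool named in the submitters' processing notes, with no version, whereas the sample descriptions of the labels give the Affymetrix software with scaling to 150. Which of them produced these intensities is not settled by the labels. Detection calls were left out.

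Of 45101 probe sets, 64 controls were left out. Values were taken as log2(intensity + 1), without further scaling or filter. Symbols came from the platform table (34945 probe sets with 1 gene, 932 with several, 9160 with none). RefSeq identifiers updated 0 symbols, and 204 probe sets with 1 gene had no match. For lists, a gene was represented by its brightest probe set (mean log2 of the 6 arrays). The fractions were compared with limma 3.58.1 in R 4.3.3 (lmFit, eBayes, fraction as the single term, 2-sided, Benjamini-Hochberg over 45037 probe sets), a procedure tested on simulated data. SD is between 3 arrays and SE is that of limma.

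Named genes were the members, Thy1, the short lists on Rhox regulation and targets, up to 3 called genes per direction of each other list, and the 3 genes nearest to each member by root mean square distance. Members, lists and rules were chosen with earlier results of these data known. The alternatives were other scalings, a pseudocount of 16, filters or floors on low values, the replicate number as a block, variance and array weight options, gene level tests and left-out arrays.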

Additional observations from a re-analysis of the deposited data

How the results depend on the processing

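Rhox5 differed by 1.82 with arrays centred on their median (adjusted p = 0.0322), by 1.70 among probe sets above the median (adjusted p = 0.0258), by 2.06 with array weights (adjusted p = 0.00109), and by 2.46 without both arrays numbered 2. Over all its alternatives the adjusted p of Rhox5 ran from 0.00109 to 0.293. The lowest came from the array weights, whose fit stopped short of its convergence tolerance. Rhox6 passed with median centring (0.17, adjusted p = 0.00675) and Rhox9 with array weights (0.26, adjusted p = 0.0406). The filter at the median removed both. The members called higher numbered 2 with median centring, 1 above the median, 2 with array weights, 1 without both arrays numbered 2 and 0 to 1 without a single array. None was called lower. Of the probe sets tested, 57.4% were called higher with median centring, 29% above the median and 29.6% with array weights. That share was 14.5% without both arrays numbered 2 and 15.1% without N2. Leaving out each array gave 1.27 to 2.21 for Rhox5, -0.19 to 1.47 for Rhox13, 0.04 to 0.07 for Rhox6 and 0.01 to 0.17 for Rhox9. All probe sets called numbered 31775 with median centring, 23941 with array weights, 1231 with the replicate block, 3177 to 13004 without a single array, and 5996 or 6070 genes at gene level, against 10533.

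Deviations from the fraction means correlated at -0.19, -0.17 and -0.01 between the fractions for arrays numbered 1, 2 and 3. With 3 arrays per fraction these values cannot show whether arrays of the same number share a preparation. With the replicate block, 0 members were called (adjusted p = 0.293 for Rhox5 and 0.768 for Rhox13). Across different numbers the correlations ran from -0.10 to 0.22, the highest for P2 with N1 (0.22) and P1 with N2 (0.15). No fit with crossed numbers was made, since the labels tie no Thy1-positive array to a Thy1-negative one.

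Of other named genes, a sign turned without N1 for 1700013H16Rik (-0.27, and up to 1.41 without N2) and Spdya (-0.13, and up to 1.14 without N2), and with the mean of all probe sets for Gabpa (0.19), Dnmt3a (-0.47) and Unc5c (0.0008). Unc5c also turned with median centring (0.12) and without P2 (0.0005, and down to -0.0042 without N2), and 1700003E16Rik without P3 (-0.0001). Housekeeping centring turned Phkg1 (-0.0004), Rnf113a1 (-0.0354), Tex13a (-0.0466) and Fthl17a (-0.0481), and quantile normalization turned Tex13a (-0.0005) and Fthl17a (-0.0024), and Fthl17a also turned without N2 (-0.0002, and up to 0.0039 without P2). The cause was not tested. The array weights stopped short of their convergence tolerance. In 129 further tests of named genes a call was lost and in 95 one was gained, with the same sign. Median centring raised the genes called higher to 12 of 13 in the list of all germ cells, 7 of 12 in the meiotic list and 6 of 8 in the X-linked list. With that scaling 57.4% of all probe sets were called higher, so these counts are not read as a gain of the lists.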

Other observations

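The genes around the Rhox cluster on the X chromosome were taken from the order of the RefSeq table, as the 3 nearest measured genes on each side and the 2 measured genes inside it that are no Rhox genes, after the values had been seen. Of these 8, 3 rose, 2 fell and 3 did not pass. On the side of Rhox1, Gm9 rose by 2.81 (SE 0.35), with 304, 145 and 243 intensity units on P1, P2 and P3, against 22.7, 35.4 and 35.4 on N1, N2 and N3. Rnf113a1 next to it differed by 0.01 and did not pass, and Ndufa1, a subunit gene of respiratory complex I, fell (-0.56, SE 0.09). On the far side, Cul4b, a ubiquitin ligase scaffold gene, rose by 0.81 (SE 0.16), and Atp1b4 (0.02) and Lamp2 (-0.12) did not pass. Inside the cluster, between Rhox13 and a Rhox pseudogene, Zbtb33, which encodes the methyl-CpG binding protein Kaiso, rose by 0.83 (SE 0.12), while its neighbour Tmem255a fell (-2.92, SE 0.68, with 58.7 on P2 the highest of its Thy1-positive values). Among 618 measured X-linked genes, 74 rose and 137 fell (22.2%), where 2983 (16.4%) and 2400 (13.2%) of all 18193 genes did, a difference that was not tested.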
